A study of Populus deltoides with 38 samples.

Results

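In the leaves of the poplar Populus deltoides, 68 of the 39572 loci in the mRNA files were higher with cadmium (Cd) at low sulfate supply and lower with Cd at middle sulfate supply. They were chosen by measured values. A locus had to reach a group mean of at least 5 FPKM (fragments per kilobase of transcript, scaled to the mapped fragments of the library) in at least 1 of 6 groups, which 17555 loci did. Its difference of group means of log2(FPKM + 1), with Cd minus without Cd, had to be at least 0.5 at low and at most −0.8 at middle sulfate. Every comparison among the low and middle sulfate libraries is therefore a description of the choice. The high sulfate libraries entered the choice only through the 5 FPKM minimum, and 0 of the 68 loci reached that minimum in a high sulfate group alone, so the Cd effect at high sulfate was the comparison that could be tested. This test was not fully separate from the choice. Its spread was estimated over all mRNA libraries, those at low and middle sulfate included.

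All plants were Populus deltoides of the labelled strain monilifera (Aiton) Eckenw, raised from stem cuttings and 89 days old. Low sulfate (L) was 0 µM, middle sulfate (M) 100 µM and high sulfate (H) 1500 µM. Each supply was given for 12 days, and then for a further 21 days with 0 (−Cd) or 50 µM CdCl2 (+Cd). Each of the 6 groups had 3 leaf mRNA libraries and 3 leaf small RNA libraries, and −CdH1, for example, denotes replicate 1 without Cd at high sulfate. The samples are described with 72 plants in total and 8 weeks in pots. The labels do not say whether the libraries of a group came from separate plants. The p-values therefore reflect the spread between these samples alone, possibly a technical one. Degradome sequencing, which records the cut 5′ ends of transcripts, was done on 1 pool of 9 RNAs at each Cd level.

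Sulfate is the main source of sulfur for plants. It is reduced to cysteine, the building block of glutathione and of phytochelatins, the thiol peptides that bind Cd and carry it to the vacuole. Low sulfate and Cd both draw on this pool of thiols, and both are known to change leaf transcript levels widely. MicroRNAs (miRNAs) add a further layer, since in plants a miRNA that pairs closely with a transcript guides its cleavage. None of the 39512 gene identifiers in the files matched the reference table used, so the loci are given by identifier or locus number and position, with no gene names or functions, and the leaf label could not be checked against marker genes.

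The degradome tables listed a cut transcript for 2 of the 51 gene identifiers among the 68 loci. They listed 855 genes in all, beside 39512 gene identifiers in the mRNA files, and nothing is read from this count. The mature sequences of the listed miRNAs are shown because they are the only deposited sequences tied to these loci, with bases 2 to 8, the seed, in capitals.
ptc-miR403a: tTAGATTCacgcacaaactcg
ptc-miR7826: tTACCAAGtttcaaattctca
Both had 21 bases. Their seeds differed, and each was listed against 1 of the 68 loci. The cuts and the levels of both miRNAs are given after the mRNA results.

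The 68 loci shared a pattern over the 6 groups in which the Cd change had opposite signs at low and middle sulfate, as the choice required. The median of the group mean FPKM was 9.25 in −CdL and 17.9 in +CdL, 23.8 in −CdM and 8.16 in +CdM, and 15.4 in −CdH and 8.18 in +CdH. At low sulfate the Cd changes ran from 0.50 to 3.83 with a median of 0.83, and at middle sulfate from −4.57 to −0.80 with a median of −1.23. In limma with Benjamini-Hochberg adjustment, 3 of the 68 passed as higher at low sulfate, where 0.319% of all 23166 tested loci did. At middle sulfate 35 passed as lower, where 13.1% of all tested loci did, and since the choice used both contrasts nothing is read from these counts. The 3 loci that passed at low sulfate were Potri.005G154300, Potri.013G143300 and the joined locus Potri.013G138800, Potri.013G138900 and Potri.013G139000.

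**Figure D1:**
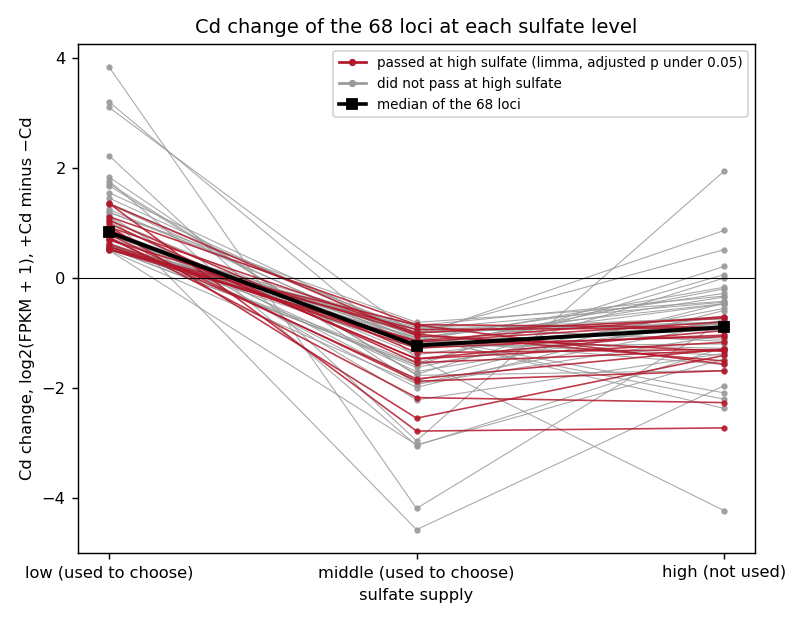
Cd change, as the difference of group means of log2(FPKM + 1) with Cd minus without Cd, for each of the 68 loci (thin lines) at low, middle and high sulfate, with the median of the 68 as a thick black line. Red lines are the 19 loci that passed the test at high sulfate, and grey lines the 49 that did not. The median was 0.83, −1.23 and −0.89, and the low and middle values were used to choose the loci.

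The levels without Cd also ordered the groups. In 65 of the 68 loci −CdL lay below −CdM, and in 62 it lay below −CdH. With Cd the order turned, and +CdL lay below +CdM in 7 and below +CdH in 8 of the 68. The highest group was −CdM for 35 loci, +CdL for 26, −CdH for 5 and +CdH for 2. The lowest group was +CdM for 33 loci, −CdL for 18 and +CdH for 17. Between +CdL and −CdM the loci differed in both directions. +CdL was the lower group in 38 of the 68, and the median log2 difference, +CdL minus −CdM, was −0.08. Individual loci could lie far apart. Potri.003G167500 had group means of 9.04 FPKM in +CdL and 35.8 FPKM in −CdM, and XLOC_004569 had 538 and 236 FPKM. These orders share libraries with the choice and are given with no test.

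**Figure D2:**
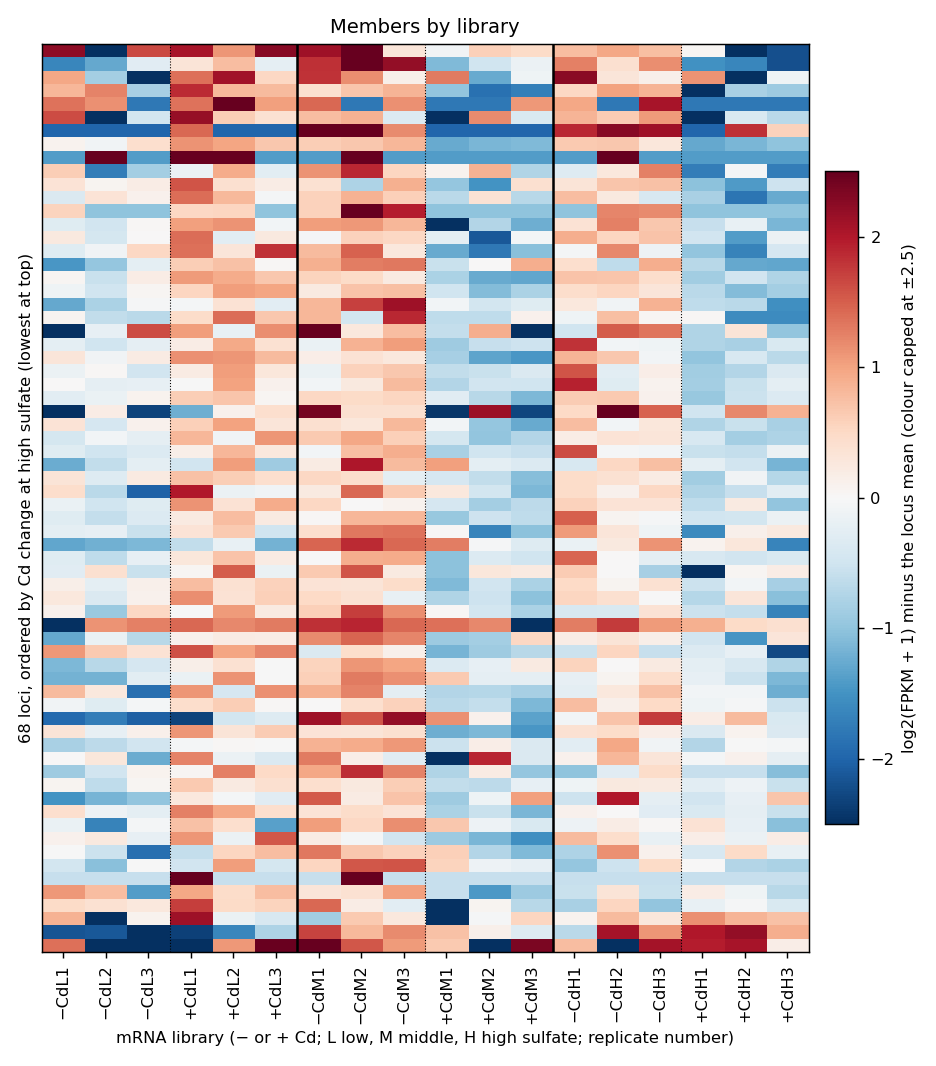
Levels of the 68 loci (rows, ordered by Cd change at high sulfate) in the 18 mRNA libraries (columns), as log2(FPKM + 1) minus the mean of the locus, with colours capped at 2.5 in either direction. The columns are mostly red in +CdL and −CdM, mostly blue in +CdM and +CdH, and −CdH1 is deep red in a few rows.

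Single libraries carried some of these levels. Library +CdL1 was the highest of all 18 libraries for 19 of the 68 loci, −CdM2 for 16, and −CdM3 and −CdH1 for 8 each. With any 1 of the 18 libraries left out in turn, 22 of the 68 loci met the rule every time.

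At high sulfate, which the choice did not use for its differences, the loci as a group sat on the side of the middle sulfate response. Of the 68, 19 fell and 0 rose with Cd (limma, adjusted p under 0.05 by Benjamini-Hochberg over 23166 loci), and 49 did not pass. Among all tested loci 8.59% fell and 4.82% rose, so the 27.9% of the 68 that fell lay above the share of all loci. In a fit of the high sulfate libraries alone, which took no spread from the other groups, 11 of the 68 fell. In that fit 984 of the 23166 tested loci fell. The median Cd change of the 68 was −0.89, beside 0.0017 over all tested loci. The change was below 0 in 62 of the 68 and at −0.8 or lower in 40, while 3 reached 0.5 or higher. In 34 of the 68 all 3 +CdH libraries lay below all 3 −CdH libraries, and in 0 they lay above; among the 17555 loci of at least 5 FPKM these shares were 18.5% and 15.3%. At an unadjusted p under 0.05 there were 32 of the 68 (47.1%), beside 28.6% of all tested loci in either direction. In whole leaves, fewer cells of a type and less RNA per cell cannot be told apart.

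The count at high sulfate depended on single libraries. Without −CdH1, 8 of the 19 still passed and no other of the 68 did, while the share of all tested loci that fell was 5.71% and the median change of the 68 was −0.86. Without +CdH3, 10 passed, where 6.85% of all tested loci fell. It was 13 without −CdH3, without +CdH1 or without +CdH2. The number of all tested loci called moved as well. It ran from 1839 to 3295 over the fits that left out 1 library, beside 3108 with all libraries. Nothing particular to the 68 is read from these drops. Some libraries were about as close to another group as to their own, by mean correlation across loci. For −CdH1 it was 0.965 with its own group and 0.963 with −CdL, for −CdH3 0.970 and 0.973 with −CdM, and for +CdH1 0.971 and 0.972 with +CdM. The relative read depth, estimated from the step size of low FPKM values, was 0.804 to 0.990 of that of −CdM1 in the −CdH libraries and 0.576 to 0.755 in the +CdH libraries. The most common step ratio held 2.77% to 9.25% of the low loci of a library, and the part of depth in the Cd change was not tested. With the FPKM of each library rescaled to 1 common sum (TPM), 14 of the 68 fell and 5.86% of all tested loci did. The split of all calls moved with the scaling, from 1117 higher and 1991 lower to 1754 and 1357 after this rescaling and to 1706 and 1691 after quantile normalization, and 0 of the 68 rose under either.

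Lower levels with Cd at high sulfate were also seen outside the 68. Another 1193 loci of at least 5 FPKM were lower by 0.8 or more at middle sulfate without meeting the low sulfate limit. Their median Cd change at high sulfate was −1.01, with 95.98% below 0 and 61.69% at −0.8 or lower. The same shares were 91.18% and 58.82% in the 68. The difference between these sets was not tested.

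Potri.005G154300 (chromosome 5, 14813786 to 14815682) had the smallest p of the 68 at high sulfate. Its FPKM were 11.9, 12.0 and 8.92 in −CdH1 to −CdH3 and 2.33, 2.71 and 3.06 in +CdH1 to +CdH3. At middle sulfate they were 11.54, 11.9 and 13.4 without and 2.40, 2.71 and 2.76 with Cd, and at low sulfate 7.60, 6.66 and 9.92 without and 16.7, 15.1 and 12.1 with Cd. The groups did not overlap at any sulfate level, and the +CdM and +CdH libraries covered nearly the same range. At high sulfate it fell, with a log2 change of −1.68 ± 0.15 (SE, limma, Benjamini-Hochberg adjusted p = 1.29e-05), from 10.9 ± 1.74 to 2.70 ± 0.362 FPKM (SD, n = 3).

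Potri.003G167500 (chromosome 3, 17807356 to 17808629) had the largest change among the loci that passed. It was listed at 17.9, 9.41 and 16.5 FPKM in −CdH and at 1.76, 1.54 and 0.727 FPKM in +CdH. At middle sulfate it was at 27.2, 44.96 and 35.3 FPKM without Cd and at 2.67, 4.58 and 6.14 FPKM with Cd. At low sulfate the direction was the other way, with 1.56, 2.25 and 5.48 FPKM without Cd and 8.88, 12.4 and 5.79 FPKM with Cd. The groups did not overlap at any sulfate level, and −CdL was the lowest group without Cd. The change at high sulfate was −2.72 ± 0.36 (SE) on the log2 scale (limma, Benjamini-Hochberg adjusted p = 0.0002).

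The locus XLOC_013787 (chromosome 5, 7047014 to 7048351), which has no gene identifier, fell at high sulfate, with a log2 change of −2.26 ± 0.53 (SE, limma, adjusted p = 0.0119). Its FPKM were 38.8, 54.4 and 48.9 in −CdH and 3.25, 14.9 and 13.9 in +CdH. At low sulfate they were 48.2, 64.3 and 14.51 without and 99.7, 47.4 and 47.0 with Cd, and these ranges overlapped. The low sulfate difference of this locus came with 1 low value, in −CdL3, and 1 high value, in +CdL1.

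The loci XLOC_033248 (chromosome 15, 7813284 to 7813505), Potri.013G139200 (chromosome 13, 14765431 to 14765855) and Potri.011G074500 (chromosome 11, 7202408 to 7202750) also passed. XLOC_033248 was listed at 37.3, 48.7 and 49.8 FPKM in −CdH and at 14.1, 10.5 and 20.5 FPKM in +CdH, a change of −1.56 ± 0.48 (SE, limma adjusted p = 0.0431). Potri.013G139200 was listed at 252, 176 and 112 FPKM in −CdH and at 83.6, 41.0 and 61.0 FPKM in +CdH, a change of −1.51 ± 0.39 (SE, limma adjusted p = 0.0196). Potri.011G074500 was listed at 15.9, 30.3 and 20.0 FPKM in −CdH and at 7.83, 10.5 and 4.95 FPKM in +CdH, a change of −1.40 ± 0.43 (SE, limma adjusted p = 0.0431). In all 3 loci the −CdH and +CdH libraries did not overlap. Their calls held in 8, 15 and 5 of the 18 fits that left out 1 library, in the same order. Without −CdH1 all 3 calls were lost, with adjusted p of 0.0766, 0.0898 and 0.0584 (limma) at changes of −1.69, −1.23 and −1.60. Potri.013G139200 is also listed at XLOC_029275, with the same coordinates, which is not among the 68 and had a change of −0.92 at high sulfate.

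The 19 loci that fell had changes from −2.72 to −0.70 and adjusted p from 1.29e-05 to 0.0455 (limma). Of them, 7 passed with any 1 of the 18 libraries left out. These were Potri.003G167500, XLOC_013787, Potri.005G154300, Potri.013G136600, Potri.013G140600, Potri.013G143300 and the joined locus of Potri.013G138800, Potri.013G138900 and Potri.013G139000. The last 4 lie within 1 stretch of chromosome 13. The other locus that passed without −CdH1 was Potri.014G106300, with 7.91, 9.00 and 8.73 FPKM in −CdH and 4.94, 3.38 and 3.60 FPKM in +CdH, and its call was lost without +CdH2 and without +CdH3.

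**Figure D3:**
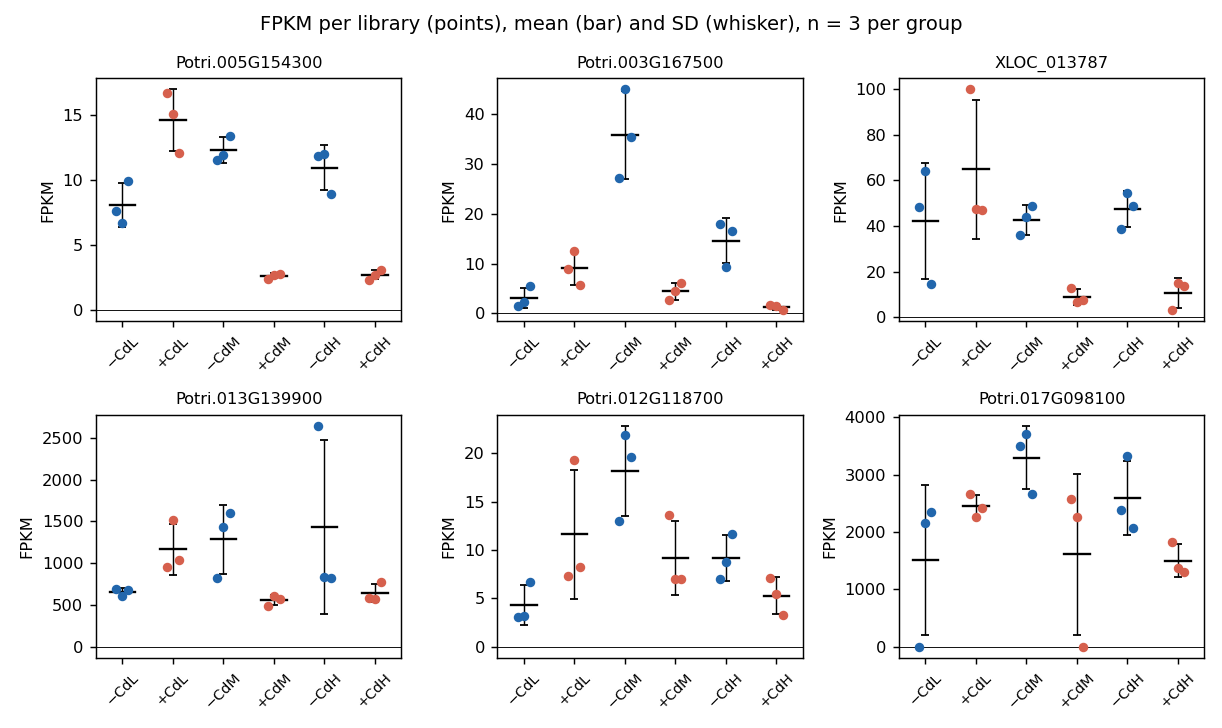
FPKM of 6 of the loci in each mRNA library (points, blue without and red with Cd), with the mean (bar) and SD (whisker) of the 3 libraries of a group. Potri.005G154300 has tight groups, Potri.013G139900 has 1 library at 2643 in −CdH beside 838 and 818, and Potri.017G098100 has a listed 0 in −CdL and in +CdM.

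None of the 68 loci passed as higher with Cd at high sulfate, where 4.82% of all tested loci did. The change was 0.5 or higher in 3 loci, and the test was not passed in any of them. Potri.006G055600 was listed at 8.55, 63.2 and 31.9 FPKM in −CdH and at 60.2, 68.6 and 27.5 FPKM in +CdH, a change of 0.86 ± 0.58 (SE, limma adjusted p = 0.351) with overlapping groups. Potri.017G059700 changed by 1.94 ± 2.32 (SE, adjusted p = 0.624) with a listed 0 in −CdH2, and XLOC_017715 by 0.51 ± 1.12 (SE, adjusted p = 0.802). Potri.006G055600 had its 6 low sulfate levels below all others, with 2.44, 2.503 and 1.12 FPKM in −CdL and 2.04, 3.92 and 7.96 FPKM in +CdL beside 48.1, 25.8 and 33.7 FPKM in −CdM.

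The most abundant of the 68 loci by FPKM, which is scaled by transcript length, were Potri.017G098100, Potri.013G139900 and Potri.013G139800. Potri.017G098100 (chromosome 17, 11567439 to 11568217) was listed at 0, 2164 and 2354 FPKM in −CdL and at 2661, 2262 and 2418 FPKM in +CdL. It was listed at 3499, 3712 and 2669.6 FPKM in −CdM and at 2569, 2263 and 0 FPKM in +CdM. A listed 0 in −CdL1 and another in +CdM3 stood beside high values in the other libraries of those groups, and they set its Cd changes of 3.83 at low and −4.18 at middle sulfate. At high sulfate, with no listed 0, it was at 2389, 3322 and 2069.5 FPKM without and 1829.9, 1369.9 and 1302 FPKM with Cd, and these did not overlap. The change there was −0.78 ± 2.87 (SE, limma adjusted p = 0.89), where the SE rests on 1 variance over all groups, the 2 zeros included.

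Potri.013G139900 (chromosome 13, 14789464 to 14795188) was listed at 690.4, 606 and 677 FPKM in −CdL and 950.3, 1518 and 1034 FPKM in +CdL. At middle sulfate it was at 818, 1436 and 1599.7 FPKM without and 490.3, 606 and 571 FPKM with Cd. At high sulfate it was at 2643, 838 and 818 FPKM without and 582, 569.8 and 769 FPKM with Cd. The groups did not overlap at any sulfate level, and −CdH1 lay far above the other −CdH libraries. The change at high sulfate was −0.94 ± 0.36 (SE, limma adjusted p = 0.103), and it was −0.38 without −CdH1.

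Potri.013G139800 was listed at 2 loci with the same coordinates (chromosome 13, 14788311 to 14789360), both among the 68. One of them, XLOC_029278, was at 2391, 652 and 634 FPKM in −CdH and 405, 389 and 521 FPKM in +CdH. The other, XLOC_030104, was at 968, 351 and 297 FPKM in −CdH and 265, 252 and 268 FPKM in +CdH. They are 1 position counted as 2 members, their reads cannot be told apart without a stated strand, and both had −CdH1 high. Their changes were −1.20 ± 0.42 (SE, limma adjusted p = 0.072) and −0.83 ± 0.36 (SE, adjusted p = 0.142), and without −CdH1 they were −0.57 and −0.30. XLOC_029278 passed without −CdH2 (limma adjusted p = 0.0478) and without −CdH3 (adjusted p = 0.0443).

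Potri.005G133100 (chromosome 5, 10757126 to 10758237) had the same high library, with 239, 65.4 and 89.0 FPKM in −CdH and 42.7, 47.2 and 61.3 FPKM in +CdH. Its change of −1.15 ± 0.37 (SE) had an adjusted p of 0.0538 in limma. It was −0.60 without −CdH1 and −1.53 without −CdH2, where it passed (adjusted p = 0.0179), as it did in 3 other alternatives. In 9 of the 68 loci −CdH1 was over 1.5 times both other −CdH libraries. Potri.005G113600 (chromosome 5, 8726352 to 8732612) was at 113, 156 and 310.2 FPKM in −CdH and 223, 134 and 129 FPKM in +CdH, and its change of −0.17 ± 0.46 (SE) had an adjusted p of 0.845 in limma.

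The other abundant loci included short ones without an identifier. XLOC_004569 (chromosome 1, 46294982 to 46295177) was at 469, 346 and 282 FPKM in −CdL, 664, 439 and 512 FPKM in +CdL, 171, 298 and 239 FPKM in −CdM and 98.3, 119 and 136 FPKM in +CdM. At high sulfate it was at 151, 319 and 148 FPKM without and 174, 189.8 and 45.2 FPKM with Cd, which overlapped, with a change of −0.74 ± 0.44 (SE, limma adjusted p = 0.29). That change was −0.38 without −CdH2 and −0.081 without +CdH3. XLOC_002575 (chromosome 1, 3232275 to 3232443) was at 1232, 0 and 814 FPKM in −CdL and 1089.5, 556 and 1268 FPKM in +CdL, and at 446, 507 and 437 FPKM in −CdH and 268, 0 and 56.2 FPKM in +CdH. Its listed zeros lay in −CdL2 and +CdH2, and the other −CdL libraries were among its highest.

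Most of the widest gaps between the low and middle changes lay in loci with listed zeros. Potri.005G197600 (chromosome 5, 21371105 to 21378527) was at 41.7, 33.5 and 8.01 FPKM in −CdM and at 0 in all 3 +CdM libraries. It was at 0 in all 3 −CdL libraries and at 9.77, 0 and 0 FPKM in +CdL. Its low sulfate change therefore came from 1 library. At high sulfate it was at 13.7, 18.2 and 16.1 FPKM without and 0, 13.03 and 4.93 FPKM with Cd, a change of −1.96 ± 0.92 (SE, limma adjusted p = 0.178), which was −0.89 without +CdH1.

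XLOC_033397 (chromosome 15, 11376720 to 11376914) was at 338, 30.2 and 43.6 FPKM in −CdM and 16.3, 48.2 and 0 FPKM in +CdM, and its ranges overlapped. XLOC_010640 (chromosome 4, 21312370 to 21312561) was at 81.8, 22.4 and 0 FPKM in −CdL and 109, 182 and 59.3 FPKM in +CdL. XLOC_012112 (chromosome 5, 1465799 to 1466044) was at 0, 18.2 and 2.39 FPKM in −CdL and 6.23, 17.0 and 21.6 FPKM in +CdL. In each of the 3 loci 1 −CdL library was listed at 0. Potri.015G136500 (chromosome 15, 14612922 to 14614243) was at 2.01, 21.9 and 6.86 FPKM in −CdM, at 0 in all +CdM and +CdH libraries, and at 0, 3.67 and 3.56 FPKM in −CdH. Potri.017G059700 (chromosome 17, 5508368 to 5508797) was at 605, 64.6 and 45.5 FPKM in −CdM and 34.2, 0 and 113 FPKM in +CdM, so that 1 library at 605 FPKM stood apart.

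Of the 68 loci, 17 were listed at 0 in at least 1 library, which is 25% beside 1.25% of the 17555 loci of at least 5 FPKM. In several of them a listed 0 stood beside high replicates. Whether a listed 0 was a failed estimate or an absent transcript was not tested. With zeros taken as missing, 55 of the 68 still met the rule, and 4 of the 17 did. A locus at 0 throughout a low or middle sulfate group, such as Potri.005G197600 in −CdL, then had no change and could not meet it. None of the 17 passed at high sulfate in limma at an adjusted p under 0.05, and all 19 loci that passed were among the 51 never listed at 0. Potri.003G199300 (chromosome 3, 20182415 to 20182604) was above 0 in only 2 of the 18 libraries, at 31.6 FPKM in +CdL1 and 37.1 FPKM in −CdM2.

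The loci shared features that the rule did not use directly. They were short in the files, with a median span of 1068 bp beside 3936 bp for the 17555 loci of at least 5 FPKM. A span of up to 500 bp was found in 27 of the 68 (39.71%), in 1.90% of those 17555 and in 9.56% of the 1193 other loci lower at middle sulfate. No gene identifier was given for 21 of the 68 (30.88%), beside 2.11% and 10.73%. Further, 14 of the 68 shared coordinates with another locus (20.6%, beside 10.2%), and 4 joined several identifiers. At the same FPKM and depth a short locus rests on fewer reads than a long one, though the read counts are not known here. The part of span in the choice of loci was not tested. Among the 27 loci of up to 500 bp, 5 fell at high sulfate with a median change of −0.90, and among the 41 longer ones 14 fell with a median of −0.89. For the 32 loci over 500 bp with an identifier and no listed 0 the median was −0.86, and 11 of them fell. Among all tested loci 8.59% fell, and the differences between these subsets were not tested.

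**Figure D4:**
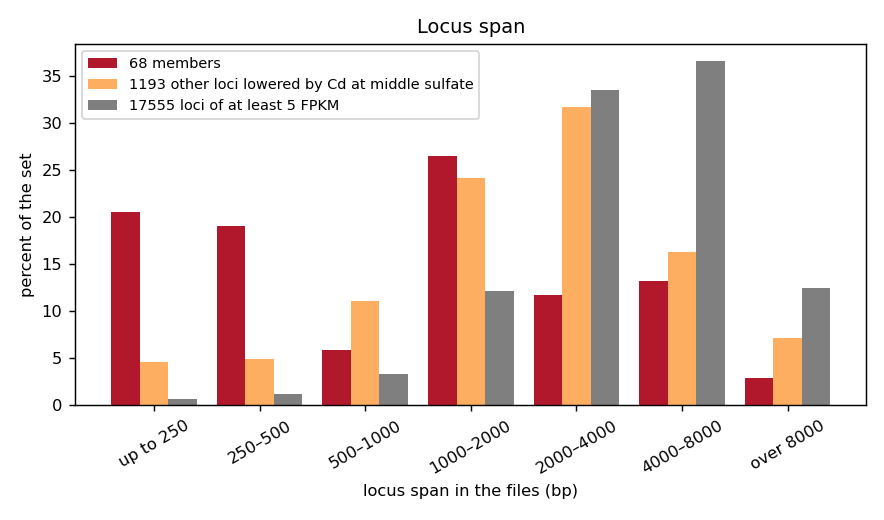
Share of loci (percent, bars from 0) by the span of the locus in the files (bp) for the 68 loci, the 1193 other loci lower with Cd at middle sulfate, and the 17555 loci of at least 5 FPKM. The 68 loci hold 20.6% at up to 250 bp, where the 17555 hold 0.723%.

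Chromosome 13 held 15 of the 68 loci (22.06%), beside 4.11% of the 17555 and 3.52% of the 1193. Of these 15, 10 lay between positions 14660316 and 14898256, a stretch of 237.9 kb with 29 loci of at least 5 FPKM. This stretch was singled out after the values were seen, as a run of at least 3 members with gaps of at most 100 kb, and the rule for adjacent loci gave no group. Of its 10 members 6 fell at high sulfate, with a median change of −1.12, where 8.59% of all tested loci fell. The 10 include both loci of Potri.013G139800, which are 1 position. The 19 others of at least 5 FPKM had a median change of 0.28 at low sulfate, of −0.78 at middle sulfate and of −0.74 at high sulfate. Of these, 14 were above 0 at low and below 0 at middle sulfate, as were 21.41% of the 17555. Loci that lie side by side may share reads or transcripts, and they are not independent replicates.

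Within the stretch, Potri.013G143300 (14896122 to 14898256) was at 24.5, 23.99 and 20.1 FPKM in −CdH and 7.54, 10.1 and 8.27 FPKM in +CdH. Its change was −1.31 ± 0.19 (SE, limma adjusted p = 0.000311). The joined locus of Potri.013G138800, Potri.013G138900 and Potri.013G139000 (14751803 to 14757726) was at 14.1, 15.2 and 12.8 FPKM in −CdH and 6.05, 4.26 and 5.18 FPKM in +CdH, a change of −1.30 ± 0.19 (SE, adjusted p = 0.000447). Both had groups that did not overlap at any sulfate level. Potri.013G136600 (14660316 to 14668908) was at 13.01, 11.4 and 6.44 FPKM in −CdH and 2.93, 4.93 and 3.91 FPKM in +CdH. Potri.013G140600 (14814562 to 14814898) was at 58.6, 59.3 and 40.3 FPKM in −CdH and 19.03, 25.4 and 29.6 FPKM in +CdH. Both fell, with changes of −1.17 ± 0.22 (SE, limma adjusted p = 0.00327) and −1.07 ± 0.22 (SE, adjusted p = 0.00569) in this order. A second and shorter stretch, on chromosome 11 from 7193479 to 7217712, held 4 of the 68 among its 7 loci of at least 5 FPKM. The 54 loci outside both stretches had a median change at high sulfate of −0.83, and 11 of them fell, beside 8.59% of all tested loci.

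**Figure D5:**
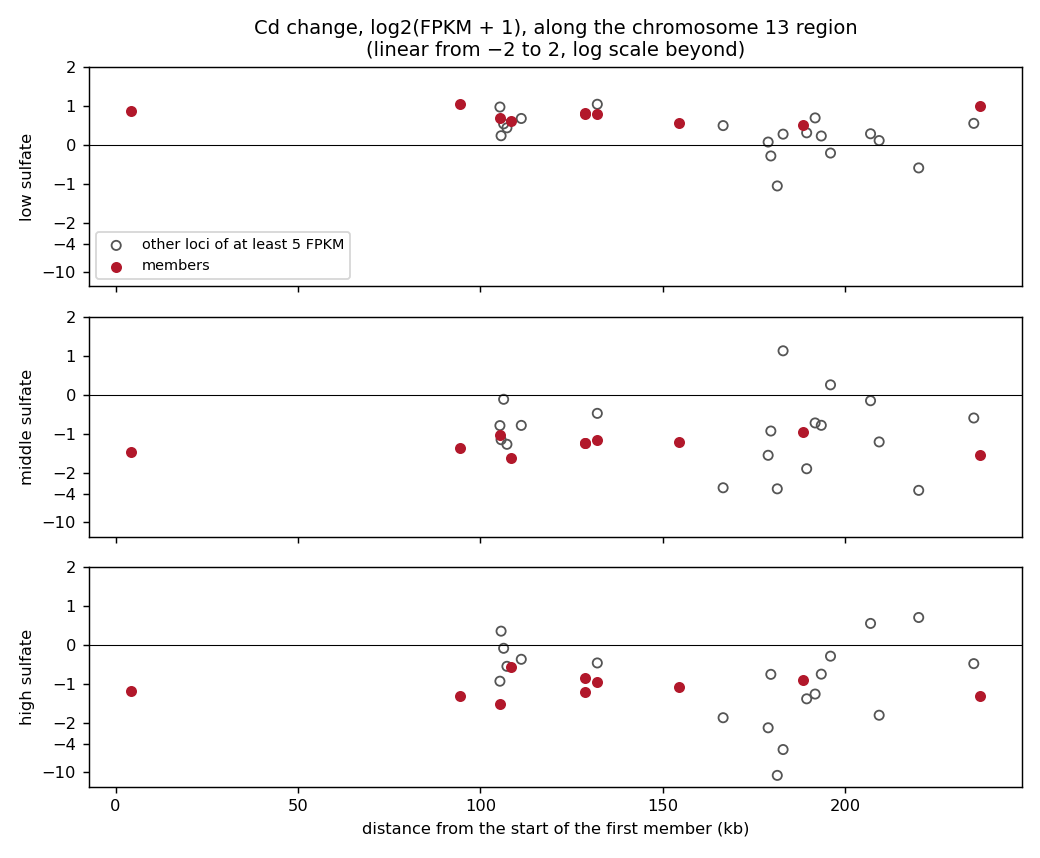
Cd change in log2(FPKM + 1) at low, middle and high sulfate (panels) by distance from the start of the first member (kb) for the 29 loci of at least 5 FPKM in the chromosome 13 stretch, with 10 members filled and 19 others open. The axis is linear from −2 to 2 and logarithmic beyond, and the members lie above 0 at low and below 0 at middle and high sulfate. The lowest point at high sulfate, at −11.01, is a locus that is not a member.

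Some loci outside the 68 followed the mean pattern of the members over the 18 libraries, and the 3 closest are named. Potri.011G041500 had a Pearson correlation of 0.92 with the mean z-score of the members, and Potri.001G261300 and Potri.005G213400 had 0.91 each. Their Cd changes at low and middle sulfate were 0.28 and −0.59 for Potri.011G041500, 0.16 and −0.78 for Potri.001G261300, and 0.34 and −0.93 for Potri.005G213400. The 18 libraries share 6 groups, so the correlations are a description.

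Around the thresholds the loci formed no gap. The 3 members nearest the low sulfate limit had changes of 0.5002, 0.5003 and 0.5073 (XLOC_034882, Potri.015G136500 and Potri.011G075000), and the nearest loci outside it had 0.4972, 0.4953 and 0.4904 (Potri.011G074800, XLOC_012682 and XLOC_029289). At the middle sulfate limit the nearest members had −0.8044, −0.8456 and −0.852 (Potri.016G046400, XLOC_021992 and XLOC_033248), and the nearest outside had −0.7974, −0.7863 and −0.7845 (Potri.001G094700, Potri.005G031900 and XLOC_029275). The nearest members to the minimum level had 5.14, 7.01 and 7.03 FPKM in their highest group (Potri.001G170000, Potri.002G235800 and Potri.009G037300). The nearest outside it had 4.95, 4.05 and 3.85 FPKM (Potri.001G394900, Potri.003G121200 and Potri.011G074600).

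Of the 2 loci with a listed cut, Potri.012G118700 (chromosome 12, 13901561 to 13907501) had the larger number of reads at the cut. The miRNA ptc-miR403a, a family known in Arabidopsis to target the transcript of ARGONAUTE2, was listed as cutting 2 of its transcripts at position 1638. The alignment score was 1 and the category 0. The cut had 18 raw reads in the pool without Cd and 40 in the pool with Cd, from 1 pool each with no replicate, and a normalised signal (TPB) of 807 and 2056. Each pool mixed RNA of all 3 sulfate levels, so the cut could not be read by sulfate.

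The mRNA of Potri.012G118700 was at 3.08, 3.12 and 6.71 FPKM in −CdL and 7.26, 19.3 and 8.24 FPKM in +CdL. At middle sulfate it was at 13.001, 21.9 and 19.6 FPKM without and 13.6, 6.95 and 6.99 FPKM with Cd. At high sulfate it was at 7.04, 8.73 and 11.7 FPKM without and 7.11, 5.45 and 3.29 FPKM with Cd. The libraries with and without Cd overlapped at middle and high sulfate and did not at low sulfate. The change at high sulfate was −0.71 ± 0.37 (SE, limma adjusted p = 0.219), and it was −0.46 without +CdH3.

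The level of ptc-miR403a was measured in the separate small RNA libraries. It was 1265, 1282 and 1680 CPM (counts scaled to the library total) in −CdL and 933, 1881 and 2548 CPM in +CdL. At middle sulfate it was 1257, 1663 and 1641 CPM without and 1255, 1184 and 1144 CPM with Cd. At high sulfate it was 1414, 1615 and 1730 CPM without and 1481, 1479 and 1205 CPM with Cd. The groups overlapped at low and high sulfate, and all +CdM libraries lay below all −CdM libraries by a small margin.

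The Cd change of ptc-miR403a was 0.34 ± 0.27 (SE) at low sulfate (edgeR, Benjamini-Hochberg adjusted p = 0.439), −0.35 ± 0.27 at middle (adjusted p = 0.461) and −0.19 ± 0.27 at high sulfate (adjusted p = 0.728). None of the 3 passed, nor did the test of a difference between sulfate levels (edgeR interaction, adjusted p = 0.479). Of the 368 small RNA sequences tested, 17.1% passed at low sulfate, 8.15% at middle sulfate and 6.79% at high sulfate.

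Potri.016G003400 (chromosome 16, 167701 to 171110), the other locus with a listed cut, was listed with ptc-miR7826 at an alignment score of 3 and category 2. The cut had 5 raw reads without Cd and 3 with Cd. The miRNA itself had 0 to 2 reads in each of the 18 small RNA libraries, too few for a test. The mRNA was at 68.8, 47.1 and 54.3 FPKM in −CdH and 39.3, 35.2 and 27.1 FPKM in +CdH and fell, with a change of −0.73 ± 0.21 (SE, limma, adjusted p = 0.0354), and the call held in 14 of the 18 fits that left out 1 library. Without −CdH1 the change was −0.58 (limma adjusted p = 0.143).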

How the data were processed

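Sample titles gave the groups and replicate numbers. For mRNA, the authors deposited FPKM per locus with a locus number, a gene identifier and coordinates, and the submitters' processing notes name TopHat2 2.1.1. For genome build, annotation and FPKM program the sources used here give nothing, and absolute mRNA depth is unknown. For small RNA, the authors deposited an expected count per mature sequence and hairpin and a normalized signal, which was not used for tests. The 18 small RNA totals ran from 498205 to 2934278. Degradome files hold, as deposited by the authors, raw read counts per cut site, a signal (TPB) and an alignment score.

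Loci with a mean over 18 libraries of 1 FPKM or more (23166) were fitted as log2(FPKM + 1) with limma 3.58.1 (trend, robust) in R 4.3.3, with 6 group means and 12 residual degrees of freedom. Fold changes on this scale understate the change of low loci. Expected counts were summed per mature sequence, rounded and tested with edgeR 4.0.16 (TMM, filterByExpr, quasi-likelihood F test) on 368 sequences, and CPM are edgeR's. P-values were two-sided, with Benjamini-Hochberg adjustment over all tested features and a threshold of 0.05. Scripts were tested on simulated data.

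Named loci were the 10 with the highest mean FPKM, the 10 with the largest gap between low and middle sulfate changes, the 5 with the largest change in each direction among those called at high sulfate, the 3 nearest each threshold on either side, and those cut with category 0 or 1. Joined loci were left out of the first 3 parts. Other loci were named after their values were seen. The members and lists were chosen with earlier results of these data known. Gene lists and tissue markers could not be applied, since 0 of 39512 identifiers matched the reference. Alternatives were other pseudocounts, filters, scalings and samples, a replicate block, DESeq2 1.42.0 for small RNA, and leaving out each library.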

Additional observations from a re-analysis of the deposited data

How the results depend on the processing

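Leaving out each library in turn gave 8 to 20 of the 68 loci called at high sulfate, 1839 to 3295 of all tested loci (1839 without −CdH1 and 1933 without +CdH2), a median change of the 68 of −1.02 to −0.86, and 59 to 100 loci by the rule (59 without −CdL2, 100 without +CdL3). It gave 57 to 74 small RNA sequences called at low, 15 to 33 at middle and 8 to 36 at high sulfate (63, 30 and 25 with all libraries). A fit of the high sulfate libraries alone called 11 of the 68 and 1282 of all loci. Whether the replicate numbers pair the samples is not stated in the labels, and the main fits used no pairing. Deviations of same-numbered −CdH and +CdH libraries correlated at −0.29 to −0.01, and 0 of 6 libraries correlated best with its own number. Over all pairs of groups the same-numbered correlations reached 0.27. With the number as a block, 18 of the 68 and 2840 of all loci were called, and 13 small RNA sequences at high sulfate. After quantile normalization 18 of the 68 were called lower, and after rescaling to a common sum (TPM) 14. Among single values, Potri.017G059700 ran from −0.029 (without −CdH2) to 3.24, Potri.005G113600 from −0.49 to 0.24 (without −CdH3), and ptc-miR403a at low sulfate from −0.020 (without +CdL3) to 0.66, each over the fits that left out 1 library; the cause was not tested. Over 21 of the named loci and ptc-miR403a (the loci nearest the thresholds and some others not included), 549 of the alternative values kept direction and side of the threshold, 32 lost the call, 6 gained it and 3 changed sign. The other alternatives run for the counts (pseudocount of 0.1, filters, rescaling, DESeq2 for small RNA) moved no total by more than 1.5 times, though after TPM rescaling the calls higher with Cd at high sulfate went from 1117 to 1754 and after quantile normalization to 1706. With a pseudocount of 0.1 the rule gave 102 loci, and these held all 68. Without +CdL1 the rule kept 48 of the 68, and without −CdL2 it kept 51. Absolute mRNA depth is unknown, so a listed 0 has no limit attached.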
